A study of Mus musculus with 6 samples.

Results

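The genes described here are 9 that bind, sense or remove retinoic acid, the active form of vitamin A. They are the binding protein genes Crabp1 and Crabp2, the retinoic acid receptor genes Rara, Rarb and Rarg, the retinoid X receptor genes Rxra and Rxrb, and the enzyme genes Cyp26a1 and Dhrs3. The platform's annotation gave 12 probe sets with 1 of these symbols as their only gene, out of 45101 probe sets and 18194 genes on the array. Crabp1 and Crabp2 led to the choice of the group because their values were higher with the microRNA mimics, so the values of all 9 genes in that comparison are given as a description. Calls of the fit over all probe sets are counted once for them, beside the share called on the whole array, and support nothing here.

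Retinoic acid is made from retinol in 2 oxidation steps. The first step can be turned back by retinaldehyde reductases such as Dhrs3, and retinoic acid itself is inactivated by hydroxylases such as Cyp26a1. Inside the cell the acid is carried by the cellular retinoic acid binding proteins. Crabp2 can deliver it to nuclear receptors, and Crabp1 is linked to its breakdown and to effects outside the nucleus. In the nucleus, a retinoic acid receptor paired with a retinoid X receptor sits on response elements in the DNA and switches from a repressor to an activator when it binds the acid. In embryonic stem cells added retinoic acid is a classic signal to leave pluripotency.

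The cells were a mouse embryonic stem cell line, named 27H10 for the series and 27H for its samples, without Dicer (Dicer -/-), the enzyme that cuts mature microRNAs from their precursors. All 6 samples carry this loss, the series has no cells with Dicer, and 1 cell line stands for the genotype. The cells were kept undifferentiated for 24 h after transfection. For 3 samples the transfected RNA was an siRNA against Renilla luciferase (siRL), called control siRNA below. The other 3 samples received Dharmacon mimics of the microRNAs of the mmu-miR-290 cluster. The labels do not say which mature microRNAs the mix contained, in what amounts, or whether the 3 samples of a group came from separate cultures. The p-values below therefore speak of the spread among these 6 samples alone, and that spread may be technical.

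The agent that separates the groups is a family of short RNAs, so its sequences come first. RefSeq places these mature microRNAs on the plus strand of chr7:3218639-3220837 in GRCm38.p6. The 6 arms shown are those named 3p in that table, with bases 2 to 8, the seed that pairs with target transcripts, in capitals.
mmu-miR-290a-3p: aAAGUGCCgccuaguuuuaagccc
mmu-miR-291a-3p: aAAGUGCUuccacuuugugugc
mmu-miR-294-3p: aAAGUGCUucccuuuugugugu
mmu-miR-295-3p: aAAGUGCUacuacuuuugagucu
mmu-miR-291b-3p: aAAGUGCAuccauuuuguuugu
mmu-miR-293-3p: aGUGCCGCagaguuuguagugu
miR-291a-3p, miR-294-3p and miR-295-3p share 1 seed, and miR-290a-3p and miR-291b-3p differ from it in the last base of the seed. The motif AGUGC is in all 6 of these arms and in 0 of the 7 arms named 5p, which are not shown. For miR-292a only a 5p arm was listed. Whether transcripts of the 9 genes contain matching sites was not analysed here.

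Every sample was read on 1 Affymetrix array, and the values are linear intensities scaled to the same trimmed mean. The median intensity per array was between 41.7 and 44.9. Between 28.5% and 30.1% of an array's probe sets were below 16, the level later set as the minimum for testing. On the log2 scale, correlations over the tested probe sets were 0.963 to 0.969 within groups and 0.959 to 0.964 between them. With 3 arrays a group, precision is limited throughout.

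Crabp1 was higher with the mimics by about the same factor as Crabp2. With the control siRNA, the 3 arrays gave Crabp1 intensities of 174, 142 and 129. With the mimics they gave 322, 293 and 348. The groups did not overlap, and the lowest mimic array was 1.69 times the highest control array. The mean went from 148 ± 23.0 to 321 ± 27.8 (SD, n = 3 each), and the log2 fold change, the mean log2 value with the mimics minus that with the control siRNA, was 1.12 ± 0.14 (SE from limma), or 2.18-fold. On the array's own scale Crabp1 was brighter than 63.8% to 67.0% of all probe sets on the control arrays and brighter than 73.1% to 74.7% on the mimic arrays.

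Crabp2 gave 419, 393 and 365 with the control siRNA. With the mimics it gave 688, 845 and 824. Again every mimic array was above every control array, the lowest by a factor of 1.64 over the highest control. The mean went from 393 ± 27.1 to 786 ± 85.2 (SD, n = 3 each), with a log2 fold change of 1.0 ± 0.11 (SE). Its rank moved from between 74.7% and 76.2% of probe sets to between 82.0% and 84.0%. Each of these 2 genes has 1 probe set, so no second probe set is at hand to compare.

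**Figure D1:**
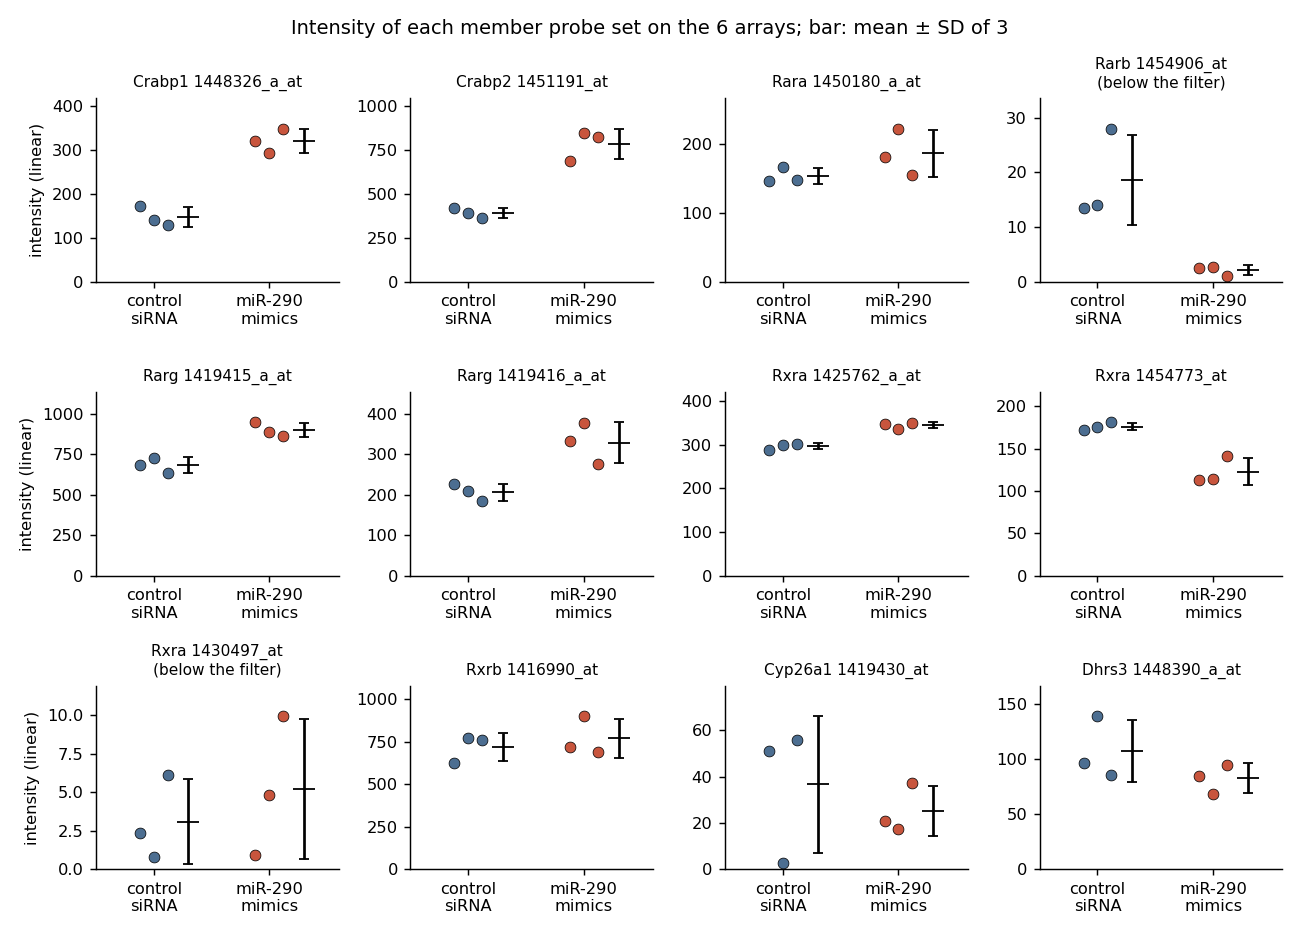
Intensity (linear scale, each panel with its own axis from 0) of the 12 probe sets on the 3 control siRNA arrays (blue) and the 3 mimic arrays (red), with the mean and SD of each group as a bar. The Crabp1, Crabp2 and Rarg panels show mimic arrays that all lie above the control arrays, the Rxra panels point in different directions, and the Rarb and lowest Rxra panels stay below 30 on every array.

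Among the retinoic acid receptors, which bind the acid directly, Rarg was higher on both of its probe sets. Rarg is the receptor type linked to Cyp26a1 and Hox gene induction in embryonal carcinoma cells. Probe set 1419415_a_at read 686, 729 and 633 with the control siRNA. With the mimics it read 947, 890.0 and 862. Its mean went from 683 ± 47.8 to 899.6 ± 43.0 (SD, n = 3 each), a log2 fold change of 0.40 ± 0.088 (SE). The dimmer 1419416_a_at read 226, 208 and 183, then 332, 376 and 275, a log2 fold change of 0.67 ± 0.15 (SE). On both probe sets the groups did not overlap. The difference between the log2 values of the 2 probe sets on the same array was 1.602, 1.81 and 1.79 on the control arrays and 1.51, 1.24 and 1.65 on the mimic arrays. These differences overlapped between the groups.

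Rara, the most widely expressed receptor type of the family, gave overlapping groups. Its control arrays read 147, 167 and 147, and its mimic arrays 181, 222 and 155. The third mimic array was below the second control array. The log2 fold change was 0.26 ± 0.15 (SE), with means of 154 ± 11.6 and 186 ± 33.6 (SD, n = 3 each).

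Rarb, whose own promoter is a textbook target of retinoic acid, was dim in both groups. It read 13.4, 14.1 and 28.0 on the control arrays, where 26.6% to 40.6% of probe sets were dimmer. On the mimic arrays it read 2.57, 2.68 and 1.04, where 2.32% to 9.55% were dimmer. The mimic values were all below the control values, but its mean log2 of 2.54 was under the minimum of 4 set for testing, so it was not tested and no fold is given.

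The retinoid X receptors are the partners that retinoic acid receptors need to bind DNA, and their probe sets did not move together. Rxra has 3. Probe set 1425762_a_at read 288, 299.9 and 302 on the control arrays and 347, 336 and 348 on the mimic arrays, with no overlap and a log2 fold change of 0.21 ± 0.067 (SE). Probe set 1454773_at went the other way. It read 172, 175 and 181, then 113, 114 and 141, a log2 fold change of −0.53 ± 0.11 (SE), with no overlap. The third, 1430497_at, was at 9.92 or less on every array and was not tested.

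The disagreement within Rxra can be stated on each array without any scaling between arrays. The log2 value of 1425762_a_at minus that of 1454773_at was 0.75, 0.77 and 0.74 on the control arrays and 1.62, 1.56 and 1.31 on the mimic arrays. The mean difference went from 0.75 ± 0.019 to 1.49 ± 0.16 (SD, n = 3 each), so the probe sets changed unequally by 0.74 on the log2 scale. With the mean of these 2 probe sets in place of the brighter one, Rxra had a log2 fold change of −0.16, so no direction is given for the gene. The annotation lists a different design sequence for each Rxra probe set, and where they lie in the transcript was not analysed here.

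Rxrb, with 1 probe set, differed by less than its spread. The control arrays read 627, 773 and 757, the mimic arrays 718, 898 and 688, and the groups overlapped (log2 fold change 0.09 ± 0.15 SE). The sign turned when control replicate 1 (−0.0045) or mimic replicate 2 (−0.027) was left out.

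The enzyme genes of the group gave overlapping groups. Cyp26a1, which clears retinoic acid and is itself induced by it, read 51.2, 2.71 and 55.9 on the control arrays and 20.9, 17.3 and 37.2 on the mimic arrays. Control replicate 2 stood far below the others. The log2 fold change was 0.27 ± 1.28 (SE) with all arrays, −1.17 without control replicate 2 and −0.057 without mimic replicate 3, and the linear means, 36.6 ± 29.4 and 25.2 ± 10.6 (SD, n = 3 each), ran opposite to the log2 value. Dhrs3, which turns retinaldehyde back to retinol, read 96.1, 139 and 85.9, then 85.0, 68.1 and 94.7. Its groups overlapped, the log2 fold change was −0.35 ± 0.23 (SE), and without control replicate 2 it was −0.15.

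Of the 12 probe sets, 10 passed the minimum mean log2 of 4, and they cover 8 of the 9 genes. In limma's fit over all 29167 tested probe sets, with a Benjamini-Hochberg adjusted p under 0.05 as the threshold, 2 of the 10 were called higher (Crabp1 and Crabp2), as were 0.343% of all tested probe sets, and 0 of the 10 were called lower, against 0.946% (1.29% in either direction). With limma's variance prior fitted as a trend on intensity and made robust to outliers (the level-dependent robust prior), 4 of the 10 were called higher, Crabp1, Crabp2 and both Rarg probe sets, against 4.73% of all, and 0 lower, against 6.56%. Because the genes were picked from this comparison, nothing is read from these counts. Neither call held when any 1 of the 6 arrays was left out; the same fit then called at most 1 probe set on the whole array. They were also lost with median centring, without the filter and with the replicate number as a block. They were kept with quantile normalization, with the filter at a mean log2 of 6, and with 16 or 64 added to every intensity. In 6 of the 10 the groups did not overlap, against 29.2% of all tested probe sets; 5 of these were higher with the mimics (13.8% of all) and 1 was lower (15.5% of all). The median log2 fold change was 0.26 over the 10 and −0.01 over all tested probe sets. By size of the log2 fold change, Crabp1 stood at position 596 and Crabp2 at position 842 from the top of all tested probe sets.

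**Figure D2:**
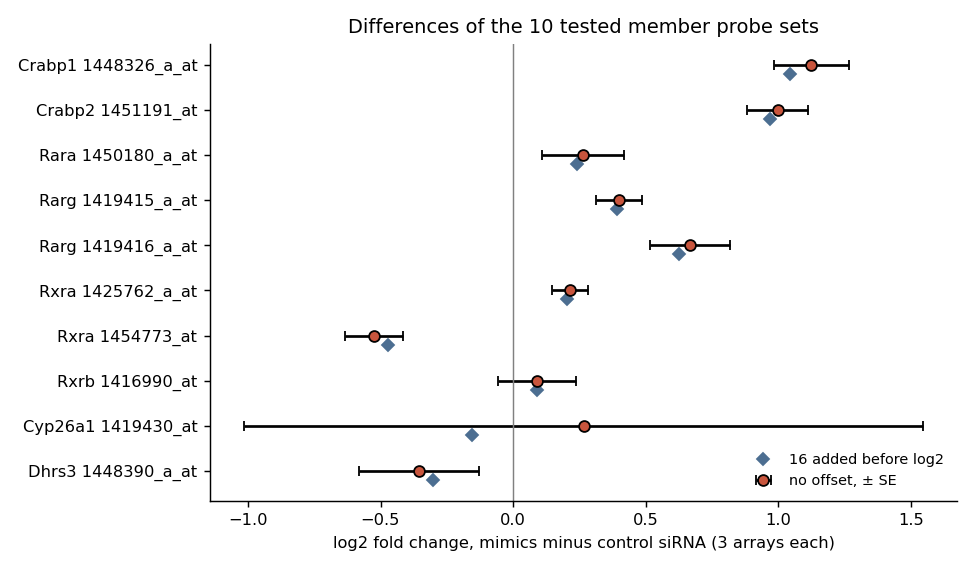
Log2 fold change (mimics minus control siRNA, 3 arrays each) of the 10 tested probe sets, as red points with limma's SE without an offset and as blue diamonds with 16 added to every intensity before log2. Crabp1 (1.12, or 1.04 with the offset) and Crabp2 (1.0, or 0.97) lie farthest to the right, the Rxra probe sets lie on both sides of 0, and Cyp26a1 crosses 0 with the offset (−0.16).

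**Figure D3:**
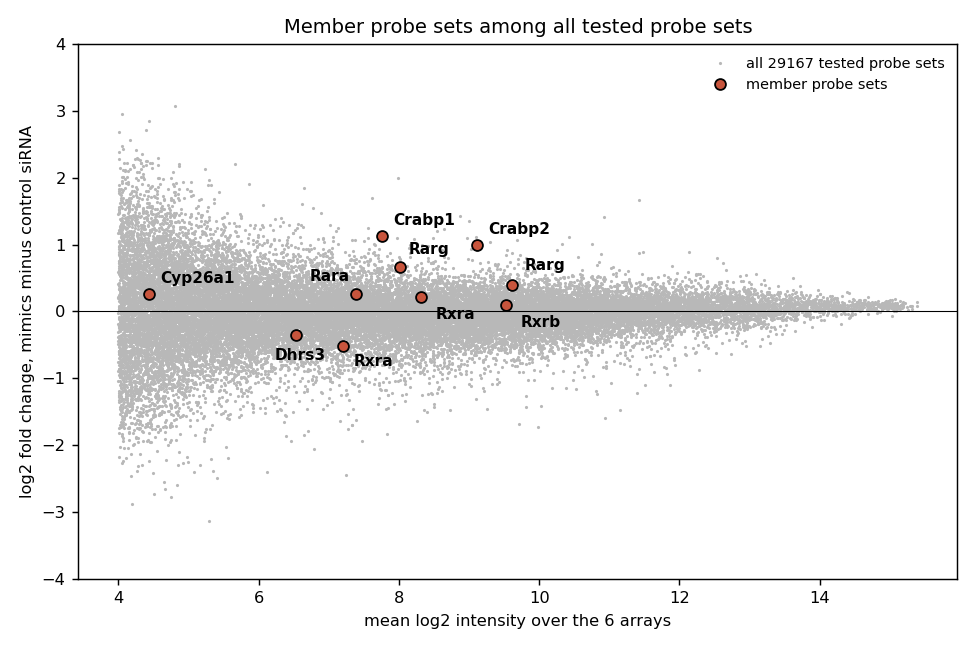
Log2 fold change against the mean log2 intensity over the 6 arrays, for all 29167 tested probe sets (grey) and the 10 tested probe sets of the group (red, labelled by gene). Crabp1 and Crabp2 lie at the upper edge of the cloud at their intensity, and Cyp26a1 lies at the dim end, where the cloud is widest.

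The response element of the retinoic acid receptors is a repeat of a 6-base half-site, in its best known form with 5 bases between the copies, and these elements are shown for the 2 members whose promoter windows held one. RefSeq promoter windows (250 bases before to 50 after a start, GRCm38.p6) were at hand for 8 of the 9 genes, 16 windows in all. Crabp2 had no window, so its promoter was not searched. The half-site was searched in the forms AGGTCA and, in other elements, AGTTCA, as well as GGGTCA, together with GGTTCA, on both strands. A pair in the same orientation with 5 bases between was found in 2 of the 16 windows, and in 0.0974% of all 32851 windows. The half-sites are in capitals, each sequence on the strand of its gene.
Rarb, chr14:16575506-16575535, minus strand: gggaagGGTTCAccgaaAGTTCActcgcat
Cyp26a1, chr19:37697770-37697799, plus strand: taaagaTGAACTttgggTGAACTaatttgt
In Cyp26a1 the element reads on the opposite strand. With 2 bases or 1 base between the half-sites, 0 of the 16 windows had a pair, against 0.268% and 0.222% of all windows. A single half-site was in 6 of the 16 windows and in 43.7% of all, so it says little, and the Crabp1 window had 0. Both genes with the element were dim here, as given above. Of 31 genes with the 5-base form in a window, Rarb and Cyp26a1 included, 7 were tested, among them Cyp26a1 but not Rarb. Of these 7, 0 were called in either direction in limma (3 at an unadjusted p under 0.05), and their median log2 fold change was −0.19. Among all 13814 tested genes 0.456% were called higher, 1.38% lower, and 24.5% were at an unadjusted p under 0.05. With 7 genes, 0 calls therefore say little.

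Other genes of retinoid metabolism and signalling, a list of 74 that holds none of the 9, did not pass the test when each was represented by its brightest probe set. Of these, 53 were tested, 12 were under the minimum and 9 were not matched to a probe set of their own. By these probe sets 0 rose and 0 fell in limma's fit, where 0.456% of all 13814 tested genes were called higher and 1.38% lower. Dimmer probe sets of 2 genes, Nr2f2 and Tgm2, did fall and are given below. At an unadjusted p under 0.05 there were 4 higher and 13 lower, 32.1% of the 53 against 24.5% of all tested genes. The median log2 fold change was 0.03 over the list and −0.01 over all tested genes. With the level-dependent robust prior, limma called 3 higher (5.66%, against 6.2% of all genes) and 11 lower (20.8%, against 9.43%). All genes of the list named below that are not the brightest of their set were picked after their values were seen.

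Of 6 tested genes for uptake, storage and transport of vitamin A, 0 passed. The brightest were Dgat1, an enzyme that can esterify retinol, at 368 ± 24.9 and 331 ± 31.7 (SD, n = 3 each), and Rbp7, a retinol binding protein gene, at 129.8 ± 22.7 and 157 ± 29.3. Rbp4, which encodes the retinol carrier of blood plasma, went from 102 ± 8.20 to 175 ± 36.4 (limma adjusted p = 0.0964, and 0.0279 with the level-dependent robust prior). Of 13 tested dehydrogenases and reductases, 0 passed. Adh5, an alcohol dehydrogenase made in most cells, was at 13742 ± 281 and 14918 ± 620.4, and Dhrs4, a retinal reductase, at 1059.6 ± 139 and 1086 ± 59.7. Rdh10, the main retinol dehydrogenase of the embryo, read 541, 529 and 627 on the control arrays and 345, 370.3 and 373 on the mimic arrays. Its log2 fold change was −0.64 ± 0.097 (SE) with a limma adjusted p of 0.0572, or 0.0027 under the level-dependent robust prior. A second Rdh10 probe set gave −0.78 and did not pass. Aldh1a2, which makes retinoic acid in the early embryo, was dim, with 40.0 ± 8.43 and 39.4 ± 14.2.

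Fabp5, a fatty acid binding protein that can also carry retinoic acid, was at 7833 ± 239 and 8293 ± 408 (SD, n = 3 each), with a limma adjusted p of 0.594, and Thra, a thyroid hormone receptor that also pairs with retinoid X receptors, at 249 ± 28.4 and 241 ± 26.7. They were the brightest of 4 tested binding protein and receptor genes outside the 9, of which 0 passed. The third receptor of the retinoid X family, Rxrg, gave a log2 fold change of 0.52 at low intensity (62.4 ± 10.1 to 88.5 ± 4.54) and did not pass (limma adjusted p = 0.14).

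Among 10 tested corepressors and coactivators, the proteins through which the receptors act on transcription, 0 passed, and 8 had a lower mean with the mimics. Their median log2 fold change was −0.22. At an unadjusted p under 0.05 in limma there were 0 higher and 4 lower, 40% of the 10 against 24.5% of all tested genes. The brightest were Med1, a Mediator subunit that binds nuclear receptors, at 2863 ± 158 and 2238 ± 151 (SD, n = 3 each), with a limma adjusted p of 0.119, and the acetyltransferase gene Crebbp at 2657 ± 262 and 2311 ± 104. With the level-dependent robust prior 4 of the 10 were called lower (40%, against 9.43% of all tested genes) and 0 higher (against 6.2%). The 4 were Med1 (−0.36), the coactivator genes Ncoa1 (−0.30) and Ncoa2 (−0.35), and Nrip1 (−0.56), a corepressor that retinoic acid induces. Probe sets of 3 of these genes disagreed. For Med1, 5 of the 6 other tested probe sets were above 0 (−0.13 to 0.47), for Nrip1 the other 4 ran from −1.55 to 0.91, and for Ncoa2 the other 3 from −0.63 to 0.19; 0 of these passed.

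Of 20 tested transcripts that retinoic acid induces in embryonic stem or carcinoma cells, 0 passed. Their median log2 fold change was −0.01, with 10 above 0 and 10 below. At an unadjusted p under 0.05 in limma there were 2 higher and 7 lower, 45% of the 20 against 24.5% of all tested genes. The brightest were Skap2, a signalling adaptor gene, at 3232 ± 86.0 and 3109 ± 61.9 (SD, n = 3 each), and Nr6a1, an orphan receptor gene, at 1375 ± 24.7 and 1202 ± 52.1. With the level-dependent robust prior 2 were called higher (10%, against 6.2% of all tested genes), Stra8 (0.66), a germ cell gene, and Gbx2 (0.32). With that prior 6 were called lower (30%, against 9.43% of all tested genes). These were Bhlhe40 (−0.84), Nr2f2 (−0.79), Tgm2 (−0.77), Tshz1 (−1.0), Meis2 (−0.43) and Hoxb4 (−2.88, with mimic values of 5.29, 4.93 and 11.7 near the floor). The second tested probe set of Tshz1 gave 0.04, and 1 of the 5 tested probe sets each of Nr2f2 and Tgm2 was above 0 (0.79 and 0.69). Dimmer probe sets of 2 of these genes did pass in the fit over all probe sets: one of Nr2f2, an orphan receptor, fell from 234 ± 4.83 to 98.9 ± 16.8 (limma adjusted p = 0.039), and one of Tgm2, a transglutaminase, from 222 ± 16.1 to 124 ± 9.23 (limma adjusted p = 0.0422). Hoxb1, Hoxb2, Hoxb5, Cdx1 and Nr2f1 were under the minimum.

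**Figure D4:**
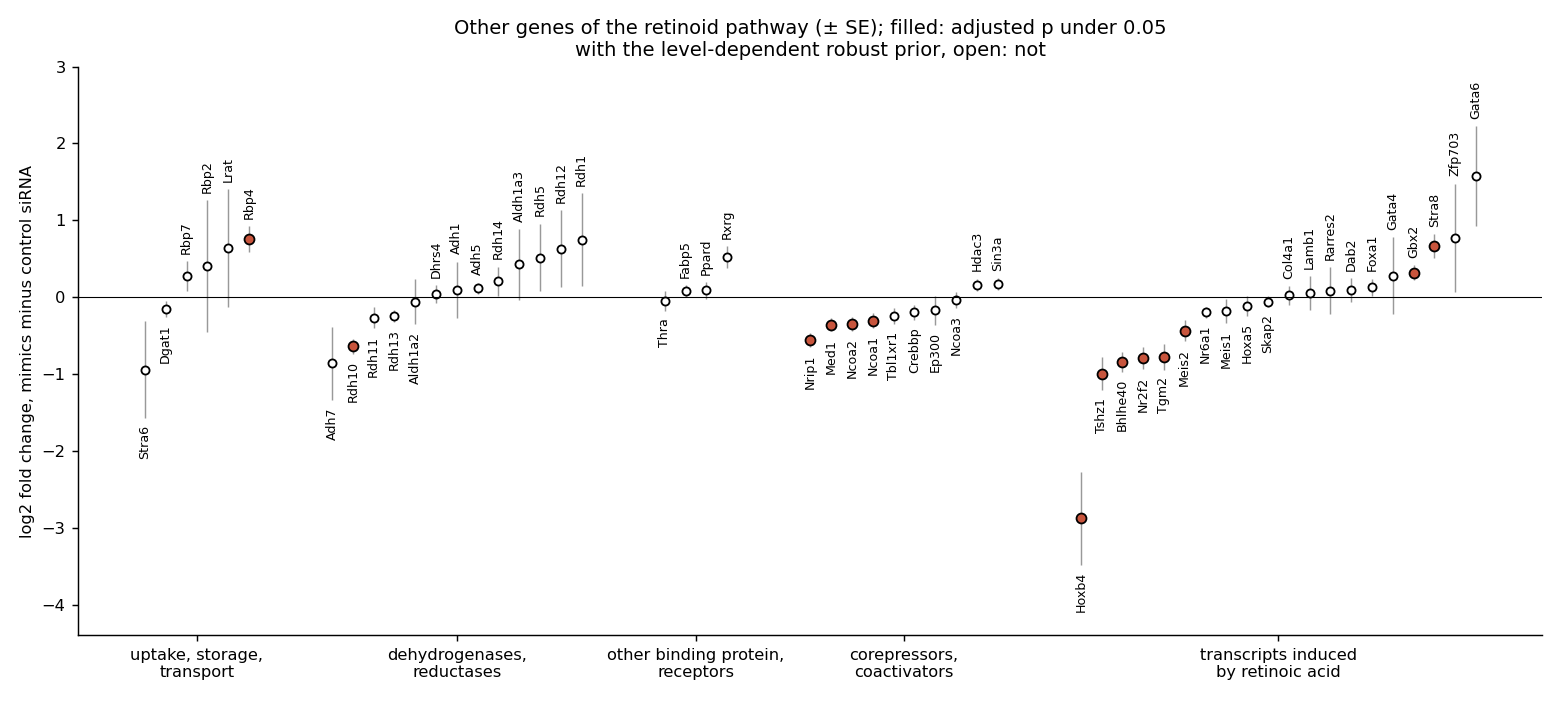
Log2 fold change (mimics minus control siRNA, 3 arrays each, with limma's SE) of the 53 tested genes of the wider retinoid pathway in 5 groups; filled points passed an adjusted p of 0.05 with the level-dependent robust prior, and 0 passed with the constant prior. The filled points are Rbp4, Stra8 and Gbx2 above 0 and 11 genes below 0, 4 of them corepressors or coactivators and 6 of them transcripts that retinoic acid induces.

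The genes whose 6 values ran most like those of Crabp1 and Crabp2 were sought among 10559 other genes with a mean log2 of at least 6. The measure was the root mean square difference of log2 values over the 6 arrays, after each gene was centred on its own mean, and the median over all candidates was 0.60 for Crabp1 and 0.54 for Crabp2. Nearest to Crabp1 were Zfp959 (0.092), Tnnt1 (0.12), a troponin gene, and Fgf15 (0.12), a fibroblast growth factor gene, with log2 fold changes of 1.2, 0.94 and 1.07. Nearest to Crabp2 were D630023F18Rik (0.080), Rangrf (0.11) and Fkbp11 (0.11), with log2 fold changes of 0.92, 0.89 and 1.11. Crabp2 itself was at 0.16 from Crabp1, at rank 8 by nearness. These arrays share their grouping, so a short distance mainly reflects a similar difference between the groups.

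Markers of the labelled cell type were bright. Pou5f1, Nanog and Sox2, core pluripotency factors, were at 11430 ± 1029, 11232 ± 327 and 12233 ± 539 with the control siRNA (SD, n = 3 each). None of these 3 passed, with adjusted p-values from limma of 0.586, 0.784 and 0.904. All 10 embryonic stem cell markers were tested and 0 were called in limma (2 at an unadjusted p under 0.05, 2 higher with the level-dependent robust prior); their summed intensity was 114742 to 124146 on the control arrays and 122925 to 129173 on the mimic arrays. For 9 markers of primitive endoderm, which express retinoid genes of their own, the sum was 410.2 to 504 and 498 to 588, and 0 of 8 tested were called in limma (2 at an unadjusted p under 0.05, 0 with the level-dependent robust prior). For 7 neural ectoderm markers it was 829 to 1032 and 759 to 924, with Sox1 called lower among 5 tested (0 with the level-dependent robust prior). For 8 fibroblast markers it was 573 to 649 and 423 to 523, with 0 of 4 tested called (2 at an unadjusted p under 0.05, 1 lower with the level-dependent robust prior). Among all tested genes, limma called 0.456% higher and 1.38% lower, and 24.5% were at an unadjusted p under 0.05. With the level-dependent robust prior it called 6.2% higher and 9.43% lower. Between the groups the fibroblast sums did not overlap and were lower on the mimic arrays, while the endoderm sums overlapped. Of the 8 fibroblast markers, 4 were under the minimum, Col1a1, Col1a2, Col3a1 and Postn. Of the 4 tested, 3 were lower with the mimics, S100a4 the most (121 ± 26.9 to 52.1 ± 24.1, SD, n = 3 each). The other 1, Thy1, was higher (170 ± 10.4 to 184 ± 26.7). Whether the number of fibroblasts differed between the groups was not tested. The part of fibroblasts or endoderm cells in the values of Crabp1 and Crabp2 was not tested. In these bulk samples more cells that express a gene and more RNA per cell cannot be told apart.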

How the data were processed

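The labels and the sample titles put the 6 arrays into 2 groups of 3. The authors deposited linear intensities, 1 per probe set; the submitters' processing notes name GCRMA, whose values are usually log2, whereas these run from 0.057 to 46765 and have a mean of 500.004 per array without the lowest and highest 2%, so which tool made them is not settled. They were log2-transformed without offset or further normalization. The 64 control probe sets and those with a mean log2 under 4 were left out. The test was limma 3.58.1 under R 4.3.3 (lmFit, eBayes with a constant prior variance, 2-sided, Benjamini-Hochberg over all tested probe sets, threshold 0.05) and it was tested on simulated data first. Genes were named through the platform annotation: 34958 probe sets have 1 symbol, 932 several, and 9211 are not listed; 34754 matched RefSeq by identifier. The probe set with the highest mean log2 stands for a gene of a list. The text names all 9 members, up to 6 list genes past the threshold per group, the 2 brightest where fewer than 2 passed, the 3 genes most like Crabp1 and Crabp2, and Pou5f1, Nanog and Sox2; any other name was picked after seeing its values. The members and lists were chosen with earlier results of these data known. Replicate numbers are not said to pair samples. Background correction and detection calls were not analysed here.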

Additional observations from a re-analysis of the deposited data

How the results depend on the processing

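The log2 fold change of Crabp1 stayed positive in all 14 alternatives (0.86 to 1.25) and that of Crabp2 in all 14 (0.89 to 1.09); for Crabp1 an added offset of 64, chosen after seeing the data, moved it to 0.86. Rarg stayed positive (0.35 to 0.53 and 0.53 to 0.79) and Rxra 1454773_at negative (−0.63 to −0.36) in the alternatives run. The number of calls depended on the settings. Probe sets called lower and higher were 1522 and 851 with the filter raised to 6, 1914 and 1379 with the level-dependent robust prior, 170 and 37 with median centring, 442 and 186 with an offset of 16, 0 and 0 without a filter, and 0 and 0 with the replicate block. Without 1 array at a time they were 0 to 0 lower and 0 to 1 higher. Pathway genes called lower and higher were 8 and 2 with the filter at 6, and 11 and 3 with the level-dependent robust prior. They were 2 and 0 with the offset of 16, and 1 and 0 where a gene's probe sets were averaged. With the offset of 64, the pathway genes called were Rdh10, Nrip1, Tgm2, Nr2f2, Bhlhe40 and Tshz1, all lower. The deviations of arrays with the same replicate number correlated at −0.04, 0.079 and 0.11 for replicates 1, 2 and 3. The highest correlation of the same control array with a mimic array of another number was 0.022, 0.041 and −0.0041. Whether the numbers pair samples is not settled by these values. The labels do not say so, and the pairing was not used in the main fit. The cause of the shifts between settings was not tested. Dim values limit Rarb, Cyp26a1 and Hoxb4, for which no detection calls were used.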
